A study of Arabidopsis thaliana with 4 samples.

Results

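The 7 genes described here encode small nuclear RNAs (snRNAs) of the Arabidopsis thaliana spliceosome: U1.5 (AT1G08115), U1.4 (AT5G04105), U2.6 (AT3G56705), U2.2 (AT3G57645), U6-29 (AT5G46315), U6-1 (AT3G14735) and U12 (AT1G61275). They were chosen by gene identifier and are 7 of 82 snRNA genes in the RefSeq gene table. The study collected RNA held with CURLY LEAF (CLF) by RNA immunoprecipitation and sequencing (RIP-seq). CLF is the catalytic subunit of a Polycomb complex, PRC2, and methylates histones. The control RIP had 2 libraries from wild-type Col-0 plants, which carry no Myc tag, and the CLF RIP had 2 libraries from clf-28/Myc-CLF plants, a clf-28 mutant rescued by Myc-tagged CLF. In all 4 libraries, plants of the Columbia ecotype aged 3 weeks, grown in long days on MS medium with sucrose, were crosslinked, and an anti-Myc antibody was applied to sonicated nuclear pellets. The RNA was then fragmented, copied from random primers and collected as products of about 200 bp, and the sources used here do not name the promoter that drives Myc-CLF.

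Each snRNA works inside a ribonucleoprotein particle, the snRNP, built on a ring of Sm proteins or, for U6, of LSm proteins. In the major spliceosome, U1 pairs with the 5′ splice site and U2 with the branch point, and U6, brought in with U4 and U5, then pairs with U2 and the 5′ splice site to form the catalytic core. U12 takes the place of U2 in the minor spliceosome, which removes a rare class of introns. In plants as in other eukaryotes these RNAs are abundant nuclear transcripts and come from families of near-identical gene copies.

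The question is how the level of these RNAs in the CLF RIP compares with that of the control. Sample labels set the groups here. The tables' own names carry the reverse assignment, and all directions would turn with it. The mRNA of CLF had 25.9 and 27.1 FPKM in the control libraries against 4.24 and 25.7 FPKM in the CLF RIP. Its log2 fold change of -1.22 did not pass the limma test (Benjamini-Hochberg adjusted p = 0.451), so it does not settle which assignment is right. The depth recovered from the value of 1 read was 10.0 and 9.72 M fragments for the control RIP but 4.27 and 4.26 M for the CLF RIP. That value, on a locus of 75 bp, was 10940 and 11294 FPKM in the control RIP and 25693 and 25765 FPKM in the CLF RIP, a ratio of 2.31. Depth and group changed together, so an effect of depth and one of the immunoprecipitation cannot be told apart. No label states that replicate libraries came from separate plants. The p-values therefore measure the spread between libraries alone, which can be technical. In such bulk samples, fewer cells holding an RNA and less of it per cell cannot be told apart either.

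FPKM scales the reads of a locus to depth and divides them by an effective length that is very small for a locus shorter than the fragments. At the 162 bp of the U1.5 locus the effective length was 10.4 bp, and 1 RPM, which is 1 read in 1 M fragments, was worth 95.8 FPKM. At the 912 bp of U6-29 it was worth 1.42 FPKM. Levels of different genes are therefore set side by side as RPM, which is not divided by length, and differences between groups are given for both scales where they differ. Intervals on reads cover counting error only.

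**Figure D1:**
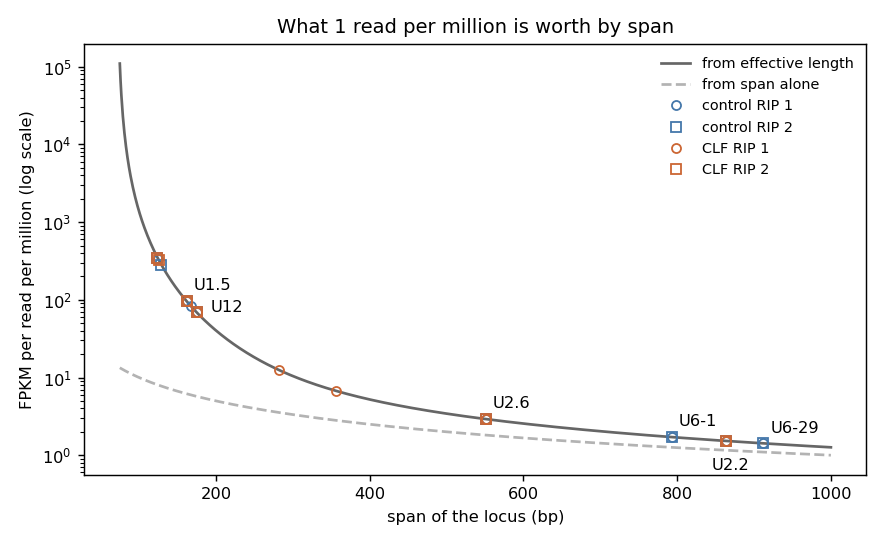
FPKM that 1 RPM gives (vertical axis, log scale) against the span of the locus in bp, with the solid line computed from the effective length and the dashed line from span alone. Open symbols are the loci of the 7 snRNA genes, shown for each library in which the locus had at least 5 reads (for both U6 genes the control RIP alone), which lie on the solid line by construction. Most U1 loci and U12 sit on its steep part and the U2 and U6 loci on its flat part.

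In RPM the order in the control RIP was U1.5, U1.4, U12, U2.6, U2.2, U6-29 and U6-1. The CLF RIP put U2.6 above U12 and left the rest of that order in place. Neighbouring genes in this order did not overlap between libraries of the same group, except in the CLF RIP for U6-29 and U6-1, at 1 read or none each. The counting intervals of U2.2 and U6-29 in the control RIP, and of U12 and U2.2 in the CLF RIP, did overlap. Over 4 libraries, U1.5 alone held more reads than the other 6 genes together.

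**Figure D2:**
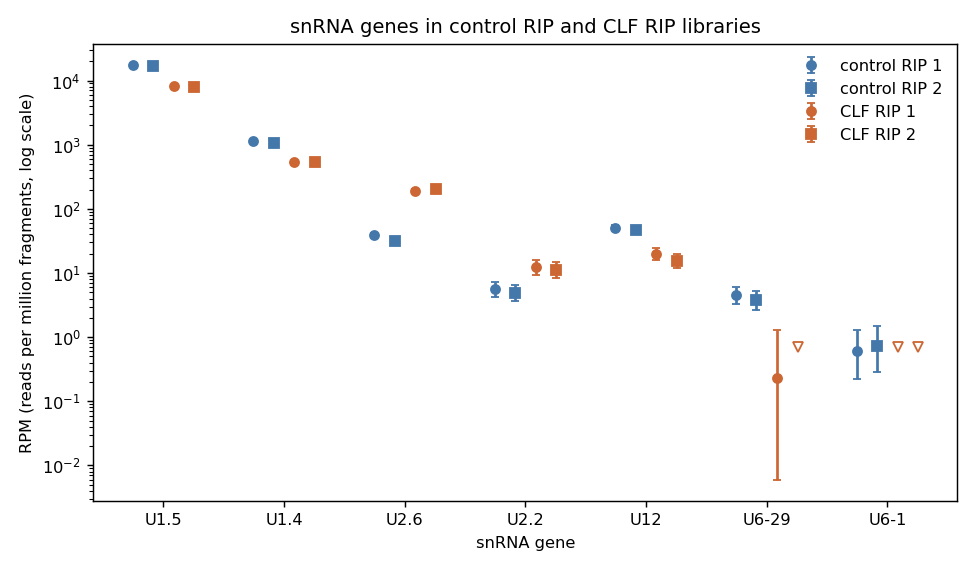
RPM (vertical axis, log scale) of the 7 snRNA genes in each library, with 95% exact Poisson intervals, blue for the control RIP and orange for the CLF RIP. Open triangles mark libraries with no read, drawn at the level of 3 reads. Both CLF RIP libraries lie below both control RIP libraries for U1.5, U1.4 and U12, and above them for U2.6 and U2.2.

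U1.5 was the highest value of every table. It had no row under its own identifier, and all 4 libraries listed 1 locus with a serial number over it, on chromosome 1 from 2538076 to 2538237 in TAIR10, against a gene length of 165 bp in RefSeq. Its FPKM was 1679390 and 1615290 in the control RIP and 775766 and 759568 in the CLF RIP. Relative to 1 read on a 75 bp locus of the same library, these values were 153.5 and 143 in the control RIP and 30.2 and 29.5 in the CLF RIP. This relative scale follows the reads and is not divided by depth, so it also carries the 2.31 times greater depth of the control RIP. Both CLF RIP libraries lay well below both control RIP libraries. In reads, U1.5 had 176002 and 163975 in the control RIP and 34617 and 33800 in the CLF RIP, or 1.75% and 1.69% of fragments against 0.810% and 0.793%.

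The U1.5 level was 17196 ± 473 RPM in control RIP and 8014 ± 120 RPM in CLF RIP libraries (SD, n = 2 each), a log2 difference of -1.10. The ratio of CLF RIP to control RIP was 0.466, with a counting interval of 0.462 to 0.470. The control RIP libraries had intervals of 17449 to 17613 and 16780 to 16944 RPM, which do not overlap, so the spread between libraries was larger than counting error. When serial loci with a reciprocal overlap of at least 0.8 were added to the fit, U1.5 fell by 1.10 on the log2 scale (SE 0.05, limma Benjamini-Hochberg adjusted p = 0.0021).

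U1.4 was covered by a pair of overlapping serial loci in each library, and their borders differed between libraries. Control RIP replicate 1 listed 1 locus on chromosome 5 from 8972814 to 8972980 (167 bp) at 45944.5 FPKM and 1 from 8972833 to 8972957 (125 bp) at 192319 FPKM. Control RIP replicate 2 listed 186155 FPKM from 8972825 to 8972948 (124 bp) and 154767 FPKM from 8972831 to 8972959 (129 bp). The control RIP loci thus kept close to the 164 bp of the gene. CLF RIP replicate 1 had wider loci, from 8972711 to 8973066 (356 bp) at 1707 FPKM and from 8972835 to 8973116 (282 bp) at 3596 FPKM. CLF RIP replicate 2 had narrow ones again, from 8972823 to 8972948 (126 bp) at 80177 FPKM and from 8972833 to 8972956 (124 bp) at 102552 FPKM.

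The summed FPKM of U1.4 was 34.5 times as high in CLF RIP replicate 2 as in replicate 1, while the reads behind it hardly differed, at 2312 and 2313. Scaled to depth, U1.4 had 1121 and 1077 RPM in the control RIP and 541 and 542 RPM in the CLF RIP. The CLF RIP libraries agree within counting error and lie below both control RIP libraries. The ratio of CLF RIP to control RIP was 0.493 (counting interval 0.477 to 0.509), a log2 difference of -1.02. On summed FPKM the difference was -3.19 (SE 2.15) and missed the threshold of limma (Benjamini-Hochberg adjusted p = 0.387). Whether a read was counted in both loci of a library was not tested, and the overlapping loci had similar reads, such as 5493 and 5758 in control RIP replicate 1 and 1082 and 1231 in CLF RIP replicate 1.

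**Figure D3:**
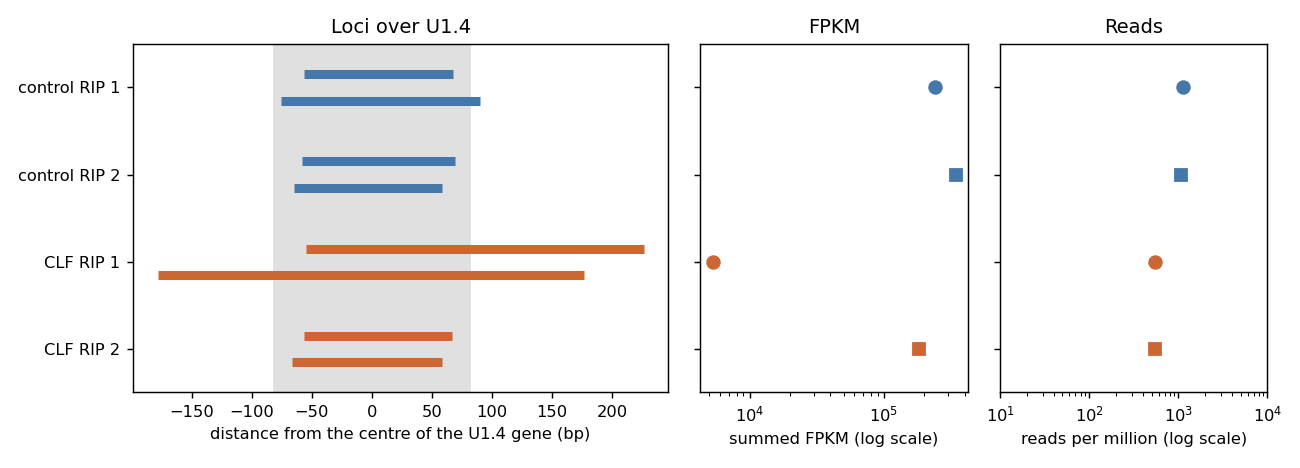
Loci over U1.4 in each library (left, distance from the centre of the gene in bp, with the span of the gene in RefSeq shaded), their summed FPKM (middle, log scale) and their RPM (right, log scale). CLF RIP replicate 1 has the wide loci and the low FPKM, and its RPM equals that of CLF RIP replicate 2 within counting error.

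The copies of U1 were also set against each other within each library. For every 100 reads on U1.5, U1.4 had 6.39 in both control RIP libraries and 6.68 and 6.84 in the CLF RIP libraries, where the share was higher in both. U1.9 moved the other way, with 0.790 and 0.846 in the control RIP and 0.636 and 0.651 in the CLF RIP. U1.8 had 0.666 and 0.732 in the control RIP and 0.662 and 0.660 in the CLF RIP. No test was made of these proportions, and U1.4, U1.8 and U1.9 are each sums over overlapping loci in every library. U1.5 took 92.5% to 92.7% of the reads on short loci over all U1 genes in the 4 libraries. This share leaves out U1.2 (AT4G07120), which lay under a longer locus of 3204 or 3222 bp, listed as AT4G23420 in CLF RIP replicate 1. That locus had 1888 and 1881 RPM in the control RIP and 1688 and 1928 RPM in the CLF RIP. It lay above U1.4 in each library, and its groups overlap. Which of its reads lie on U1.2 is not known. The sources used here do not say how the authors' counting placed reads that match several copies, so the split among near-identical U1 or U2 copies is uncertain.

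U2.6 rose. Its locus on chromosome 3 from 21004259 to 21004809 spans 551 bp, the full gene model. Its FPKM was 113 and 90.4 in the control RIP and 561 and 593 in the CLF RIP, or 0.0103 and 0.0080 against 0.0218 and 0.0230 of 1 read on a 75 bp locus. Both CLF RIP libraries were far above both control RIP libraries. RefSeq gives 195 bp for a second U2.6 gene (AT3G08695), so which reads on the 551 bp lie on the RNA itself is not known. That second gene lay under a serial locus of 2787 bp, with 7.96 and 8.62 FPKM in the control RIP and 6.31 and 8.36 FPKM in the CLF RIP. In reads U2.6 had 388 and 301 in the control RIP and 821 and 865 in the CLF RIP, more in absolute number despite the lower depth. The log2 fold change of U2.6 was 2.50 (SE 0.12, limma Benjamini-Hochberg adjusted p = 0.0030), and its RPM was 5.66 times as high in the CLF RIP (counting interval 5.18 to 6.20).

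U2.2 rose less than U2.6. On its locus of 863 bp, on chromosome 3 from 21346342 to 21347204, the FPKM was 8.53 and 7.55 in the control RIP and 19.0 and 17.2 in the CLF RIP. The groups did not overlap, but the reads behind them were alike, at 56 and 48 in the control RIP and 53 and 48 in the CLF RIP. Relative to 1 read on a 75 bp locus of each library, U2.2 was at 0.00078 and 0.00067 in the control RIP and at 0.00074 and 0.00067 in the CLF RIP, where the groups overlap. Its log2 fold change of 1.08 (SE 0.12, limma Benjamini-Hochberg adjusted p = 0.016) thus stands on the scale divided by depth and not in the reads. In RPM the ratio was 2.25, with a counting interval of 1.69 to 2.99. The 863 bp exceed the 195 bp that RefSeq gives for another U2 gene (AT3G08945). Which of these reads lie on the RNA itself is therefore not known.

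U12, the branch-point snRNA of the minor spliceosome, fell. Its locus on chromosome 1 from 22603121 to 22603295 spans 175 bp, the full gene, and had 3472 and 3230 FPKM in the control RIP and 1354 and 1067 FPKM in the CLF RIP. Relative to 1 read on a 75 bp locus, U12 was at 0.317 and 0.286 in the control RIP and at 0.0527 and 0.0414 in the CLF RIP. The groups did not overlap on either scale, of which the relative one is not divided by depth. The reads were 506 and 456 in the control RIP and 84 and 66 in the CLF RIP. U12 had a log2 fold change of -1.48 (SE 0.14, limma Benjamini-Hochberg adjusted p = 0.012) and a ratio of 0.361 in RPM (counting interval 0.302 to 0.429). Under quantile normalization the log2 fold change turned to 0.15 with an adjusted p of 0.566, so the direction of U12 depends on the scaling. Median-of-ratios scaling gave -1.67 (limma Benjamini-Hochberg adjusted p = 0.0076), and quantile normalization was the 1 alternative that reversed the direction.

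The U6 genes were low. U6-29, on chromosome 5 from 18787079 to 18787990, had 6.38 and 5.41 FPKM in the control RIP and 0.333 and 0 FPKM in the CLF RIP, from 45, 37, 1 and 0 reads. Both control RIP libraries were above both CLF RIP libraries. The U6-29 locus spans 912 bp, while RefSeq gives 101 bp for U6-1, so which of these reads lie on the RNA itself is not known. U6-29 had a log2 fold change of -2.57 (SE 0.24, limma Benjamini-Hochberg adjusted p = 0.012). The ratio of control RIP to CLF RIP was 35.4 in RPM, and with 1 read in the CLF RIP its counting interval ran from 6.18 to 1416. Relative to 1 read on a 75 bp locus, U6-29 was at 0.00058 and 0.00048 in the control RIP and at 1.3e-05 and 0 in the CLF RIP.

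U6-1, on chromosome 3 from 4951285 to 4952077, had 1.03 and 1.23 FPKM in the control RIP and was listed at 0 in both CLF RIP libraries, from 6, 7, 0 and 0 reads. This locus spans 793 bp, while RefSeq gives 101 bp for the gene, so which of these reads lie on the RNA itself is not known from the tables. U6-1 had a log2 fold change of -1.09 (SE 0.20, limma Benjamini-Hochberg adjusted p = 0.037). The control RIP level of U6-1 was 1.87 times a floor of 3 reads over the CLF RIP group, which is not a lower bound. With counting error in both groups, the interval for the ratio of control RIP to CLF RIP started at 1.32. Library by library U6-1 was not detectably different at this depth. With 0 reads, the CLF RIP could hold up to 0.863 and 0.865 RPM (exact Poisson), above the 0.598 and 0.720 of the control RIP. Its level relative to 1 read on a 75 bp locus was 9.39e-05 and 0.00011 in the control RIP.

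By limma at an adjusted p of 0.05, U2.6 and U2.2 were higher and U12, U6-29 and U6-1 lower among these genes, 2 and 3 of the 5 that were tested. In the same fit 19.8% of 2462 genes were called, 11.5% higher and 8.29% lower, and groups did not overlap for 39.7% and 25.5% of genes. U6-29 and U6-1 passed the filter of 1 FPKM in 2 libraries through the control RIP alone and so had to differ, and the count of 5 is no support for any direction. In a wider fit that matched serial loci to genes, 14641 genes were tested and 0.69% were higher and 0.54% lower, with groups that did not overlap for 40.6% and 18.9%. There U2.6 kept its call (limma Benjamini-Hochberg adjusted p = 0.036), while U12 (0.052), U6-29 (0.054), U6-1 (0.097) and U2.2 (0.114) missed the threshold. The calls other than that of U2.6 thus depend on which genes share the fit. Calls of U2.6, U2.2 and U12 were lost without either control RIP library, with adjusted p of 0.177 to 0.223. Without either of these libraries no gene of the 2462-gene fit passed, with 468 and 448 genes at an unadjusted p under 0.05.

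Other snRNA genes were set beside these. Of the 82 snRNA genes, 6 had their own identifier in all 4 libraries, 2 in some, 60 had only serial loci and 14 had no overlapping locus in any library. The sixth gene under its own identifier was U6acat (AT5G40395), the counterpart of U6 in the minor spliceosome, with 41.6 and 64.4 FPKM in the control RIP and 8.14 and 8.16 FPKM in the CLF RIP. The reads of U6acat were 12, 18, 1 and 1. U6acat fell by 2.53 on the log2 scale (SE 0.23, limma Benjamini-Hochberg adjusted p = 0.011), and its call was lost without either control RIP library.

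In the wider fit, U4.2 (AT3G06900) and U2.3 (AT3G57765) passed as well. U4.2, a copy of the RNA that escorts U6, had 1152 and 1125 FPKM in the control RIP and 742 and 753 FPKM in the CLF RIP, from 4228, 3999, 1160 and 1174 reads. This locus spans 574 bp, while RefSeq gives 153 bp for the gene, so which of these reads lie on the RNA itself is not known. U4.2 fell by 0.61 on the log2 scale (SE 0.03, limma Benjamini-Hochberg adjusted p = 0.036). U2.3 had 153 and 157 FPKM in the control RIP and 363 and 350 FPKM in the CLF RIP. As for U2.2, its reads were alike in all libraries, at 1019, 1013, 1028 and 988. They come from a locus of 871 bp, against 195 bp in RefSeq for a second U2.3 gene (AT3G09005). U2.3 rose by 1.19 on the log2 scale (SE 0.07, limma Benjamini-Hochberg adjusted p = 0.036).

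Copies of 1 family were then compared by RPM, summed over the short loci on each gene, with no test between groups. There were 5 U1 copies with reads on short loci in every library, so U1.2 is not among them. Of these, 4 had a counting interval wholly below 1 for the ratio of CLF RIP to control RIP: U1.5, U1.4, U1.8 (0.441) and U1.9 (0.367). U1.12p, with 26 reads in all, had a ratio of 0.853 and an interval of 0.303 to 2.12. Of 6 U2 copies, 5 had an interval wholly above 1, but they differed in size. U2.14 was at 6.71 (5.82 to 7.75) and U2.6 at 5.66, U2.3 at 2.30 and U2.2 at 2.25, U2.10 at 1.23 (1.05 to 1.43) and U2.10b/12 at 0.956 (0.690 to 1.31). For U2.14, each control RIP library had 1 locus, with 133 and 129 reads. The CLF RIP libraries had overlapping loci, with 70 and 305 reads in replicate 1 and 45 and 339 in replicate 2. Whether a read was counted in both was not tested. The U2 copies thus fall at different ratios, whose counting intervals do not overlap between U2.14, U2.3 and U2.10. These intervals leave out the spread between libraries, and the share of all genes with an interval off 1 was not computed. In the wider fit, groups did not overlap for 40.6% of genes as higher and 18.9% as lower in the CLF RIP.

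The U6 gene U6.5 had 16 and 20 reads in the control RIP and 3 and 2 in the CLF RIP, a ratio of 0.322 (0.0985 to 0.822). Among the genes of the remaining snRNAs, U5.6 had a ratio of 0.951 (0.677 to 1.32) and U4atac, the partner of U6acat, 1.76 (1.16 to 2.64). U4.11p, with 10, 13, 21 and 30 reads, was at 5.13 (3.08 to 8.80), on the other side of 1 from U4.2 at 0.657. However, U4.11p is 74 bp in RefSeq and lies inside the 2908 bp locus of AT1G68400. Its short loci span 85 to 552 bp, so which of its reads belong to which gene is not known. The ratios of copies leave out genes without reads on short loci in some library, where it had only longer loci or no locus. Among genes with no locus in the CLF RIP were U4.8 (36, 44, 0 and 0 reads) and U6.6 (14, 9, 0 and 0). U5.10 (51, 125, 11 and 0) had only longer loci in CLF RIP replicate 2. On the other side, U2.11 had 0, 0, 66 and 50 reads, with only a longer locus in control RIP replicate 2.

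**Figure D4:**
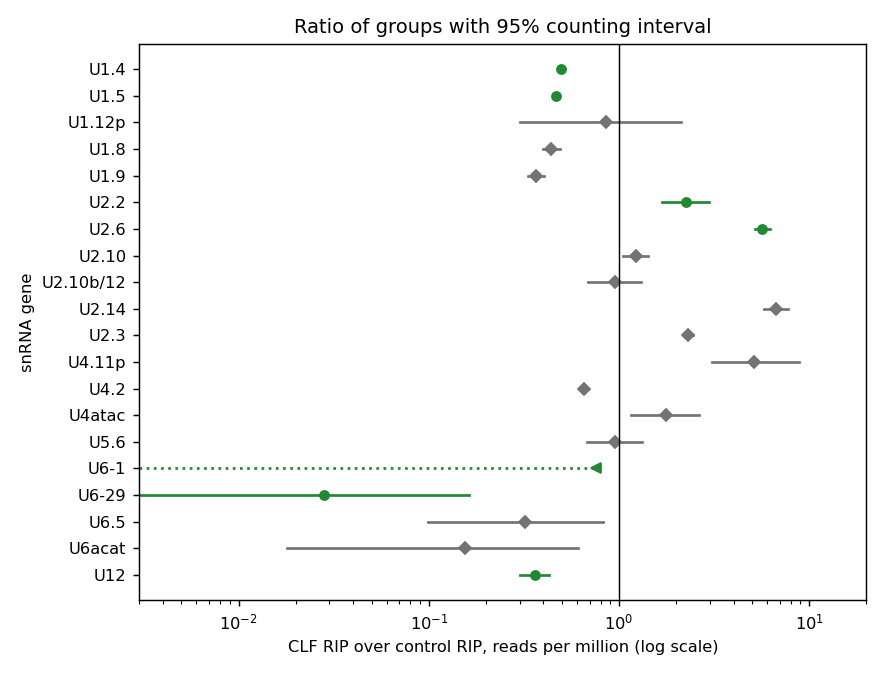
Ratio of CLF RIP to control RIP in RPM (horizontal axis, log scale), with 95% counting intervals. Shown are the 7 genes of interest, U2.3 and other snRNA genes with reads on short loci in every library. Green circles are the 7 genes, grey diamonds are other snRNA genes, the dotted line is U6-1 with no read in the CLF RIP, and the vertical line marks 1. The U1.5 and U1.4 ratios of 0.466 and 0.493 lie left of 1, and the U2 copies reach from 0.956 to 6.71.

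In other small RNA classes of the same fit, 3 of 9 small nucleolar RNA genes tested were higher and 2 were lower, with a median log2 fold change of 0.51. Of 17 microRNA genes tested, 3 were higher, 1 was lower and 13 did not pass, with a median of 0.44. The single tRNA gene tested did not pass. Over all 2462 genes 11.5% were higher and 8.29% lower, with a median of 0.11.

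The mRNAs of the proteins that build these snRNPs mostly did not pass. Of 48 such genes, 39 were tested in the wider fit, 1 was lower, none was higher and 38 did not pass, with 8 (20.5%) at an unadjusted p under 0.05, against 24.7% of all 14641 genes. Their median log2 fold change was 0.61, against 0.25 over all genes. Of the 39, 30 (76.9%) were above 0, against 63.2% of all genes. The mRNA of LSM3B, a subunit of the LSm ring that holds U6, had 21.4 and 15.9 FPKM in the control RIP and was listed at 0 in both CLF RIP libraries. It was the 1 gene past the threshold, with a log2 fold change of -4.28 (SE 0.24, limma Benjamini-Hochberg adjusted p = 0.036). LSM3B passed the filter through the control RIP alone and so had to differ, and its call is no support for a direction. A listed 0 can also be a failed estimate, and the Sm genes AT3G62840 and AT2G47640, picked after their values were seen, were at 0 in some libraries of a group and not in others. AT3G62840 had 19.95 and 0 FPKM in the control RIP and 17.1 and 0 FPKM in the CLF RIP. LSM3A, the paralog of LSM3B, had 20.9 and 47.7 FPKM in the control RIP and 32.8 and 24.3 FPKM in the CLF RIP, and did not pass.

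For U1, the mRNA of U1-70K, which binds a stem-loop of U1 RNA, had 64.6 and 64.0 FPKM in the control RIP and 113 and 111 FPKM in the CLF RIP. Its groups did not overlap, and it missed the threshold with a log2 fold change of 0.79 (limma Benjamini-Hochberg adjusted p = 0.091). U1A and AT4G03120 did not pass either, and U1A differed widely within the CLF RIP, at 5.46 and 121 FPKM. AT4G03120 lay the other way, with 13.0 and 22.1 FPKM in the control RIP and 10.2 and 11.3 FPKM in the CLF RIP. Its difference was -0.62 on the log2 scale. The median of the 3 U1 protein genes is the value of U1-70K.

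For U2, 4 protein genes were tested and none passed, with a median of 0.78 and 1 at an unadjusted p under 0.05. AT5G64270, the SF3b1 subunit that grips the branch-point duplex of U2, had 8.89 and 7.82 FPKM in the control RIP and 14.6 and 13.96 FPKM in the CLF RIP. It missed the threshold with a log2 fold change of 0.71 (limma Benjamini-Hochberg adjusted p = 0.169). U2A' had a log2 fold change of 0.86 and U2B'' one of 1.77, and the CLF RIP libraries of U2B'' lay far apart, at 30.7 and 178 FPKM.

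The 7 genes of U4/U6.U5 tri-snRNP proteins all lay above 0, with a median of 0.72 and none past the threshold, 3 of them at an unadjusted p under 0.05. Over all 14641 genes 63.2% lay above 0 and 24.7% had an unadjusted p under 0.05. SUS2, the PRP8 protein that cradles the catalytic core, had 10.7 and 10.95 FPKM in the control RIP and 26.9 and 21.7 FPKM in the CLF RIP. Its log2 fold change was 1.09 (limma Benjamini-Hochberg adjusted p = 0.122). The BRR2 helicase gene emb1507, which unwinds U4 from U6, had a log2 fold change of 0.72, and AT1G28060 one of 0.68.

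In the remaining lists the medians were 0.26 over 10 Sm ring genes, -0.16 over 7 LSm ring genes, 0.50 over 3 genes of U11/U12 proteins and 0.69 over 5 genes of snRNA synthesis and snRNP assembly. Of the 24 genes left beside LSM3B none passed the limma test, and 2 had an unadjusted p under 0.05. These were the Sm gene AT4G02840 (log2 fold change 0.95, adjusted p = 0.195) and EMB1895 (0.92, adjusted p = 0.132). In the U11/U12 list, AT2G43370 had the smallest p, with a log2 fold change of 1.76 (limma Benjamini-Hochberg adjusted p = 0.239), from 3.49 and 5.68 FPKM in the control RIP and 32.8 and 9.24 FPKM in the CLF RIP.

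**Figure D5:**
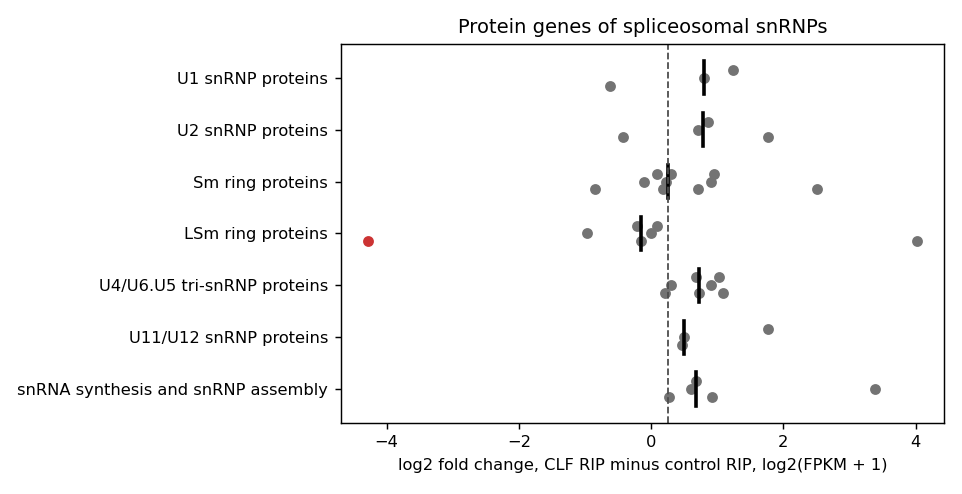
Points give the log2 fold change of CLF RIP over control RIP on log2(FPKM + 1) (horizontal axis) for 39 protein genes of the spliceosomal snRNPs, by list. Each point is 1 gene, black bars are list medians, the dashed line is the median of all genes tested at 0.25, and red marks LSM3B, the 1 gene past the threshold, which was listed at 0 in both CLF RIP libraries and passed the filter through the control RIP alone.

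Genes whose pattern over the 4 libraries was most like that of each snRNA were sought by the root mean square difference of log2(FPKM + 1), each gene centred on its mean. For U2.6 these were LTI30 at 0.10, which encodes a dehydrin, CYP94B3 at 0.21 and ERF53 at 0.22. LTI30 had 5.25 and 3.79 FPKM in the control RIP and 24.7 and 27.6 FPKM in the CLF RIP. For U2.2 they were AT5G12050 and AT3G24080, both at 0.037, and AT4G26130 at 0.043.

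For U12 the nearest were AT5G39670 at 0.053, AT4G28085 at 0.079 and AT5G15780 at 0.10. For U6-29 they were AT5G24065 at 0.13, PAP1 at 0.23 and AT1G15002 at 0.24, and for U6-1 AT5G38990 at 0.039, LHCB4.2 at 0.045 and PBP1 at 0.059. LHCB4.2, a chlorophyll-binding antenna protein of photosystem II, had 85.6 and 90.6 FPKM in the control RIP and 40.1 and 43.2 FPKM in the CLF RIP, far above the level of U6-1. The likeness of both U6 genes to others depends on the pseudocount of 1. With 0.1, U6-1 was at -3.62 and not -1.09 on the log2 scale, and U6-29 at -4.84 and not -2.57.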

How the data were processed

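RIP-seq values were used as the authors deposited them, as FPKM per locus in 4 tables. Per the submitters' processing notes, reads went through Trimmomatic and TopHat2 2.0.10 with TAIR10, and the sources used here do not name the program behind the FPKM. RefSeq (TAIR10.1) supplied gene names and lengths but no printed coordinate. No sequence file was used and none is printed.

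The 7 genes, the gene lists and the rule for named genes (every snRNA gene, CLF, the 3 smallest p per list and the 3 nearest patterns) were chosen with earlier results of these data known. LSM3A, chosen after its values were seen, lies outside that rule.

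Reads were recovered from FPKM with an effective length. Fragments were taken as normal with mean 200, SD 80 and a minimum of 73 bp, settings chosen after the tables were seen, as was RPM as the measure. On loci of at most 400 bp with under 20 reads, 97.9% to 98.5% of values were whole within 0.05. RPM divides rounded reads by the depth so recovered.

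The main fit took the 14960 genes with an own identifier in every table, 7999 of them at 0 in each, and tested those with at least 1 FPKM in 2 libraries. It used limma (3.58.1, R 4.3.3) on log2(FPKM + 1), with lmFit and eBayes (trend, robust), Benjamini-Hochberg adjustment and a threshold of 0.05. This scale understates the change of low genes. The wider fit added serial loci matched by a reciprocal overlap of at least 0.8, each at least 300 bp long, for 27040 genes. It left out 199 genes whose serial locus reached the value of 1 read on 75 bp. The fits were tested on simulated data. The read recovery was tested on values made with the same fragment settings, so that test cannot show whether the settings hold for these libraries. Short loci in the comparison of copies span at most 600 bp, a limit chosen after seeing the data. The 7 genes and U2.3 entered at their own spans. Intervals are exact at 95%. Alternatives changed the filter, pseudocount, scaling, prior, block, locus match and libraries. Other software was Python 3.11.15 with scipy 1.17.1, numpy 2.4.6, pandas 2.3.3 and, for plots, matplotlib 3.10.9.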

Additional observations from a re-analysis of the deposited data

How the results depend on the processing

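U2.6 kept its direction under every alternative tried, and its call under all but the loss of either control RIP library. Without each library in turn the log2 fold changes ran from 2.34 to 2.66 for U2.6, 1.00 to 1.16 for U2.2, -1.65 to -1.31 for U12, -2.78 to -2.37 for U6-29, -1.13 to -1.07 for U1.5 and -1.05 to -0.99 for U1.4, and the count of genes called in the 2462-gene fit from 0 to 422 (488 with all), of other snRNA genes from 0 to 1, and of snRNP protein genes was 0 throughout, with 1 to 10 at an unadjusted p under 0.05. U6-1 stayed at -1.09 without a CLF RIP library, and neither U6 gene could be tested without a control RIP library, nor U6-1 at a filter of 5 FPKM. With no filter the count was 50, no other snRNA or snRNP protein gene was called, and limma Benjamini-Hochberg adjusted p were 0.083 for U2.2 (1.08), 0.071 for U6-29 (-2.57), 0.10 for U6-1 (-1.09) and 0.083 for U12 (-1.48). Of the scalings, quantile normalization turned U12 to 0.15 (adjusted p = 0.566) and split the calls into 206 higher and 220 lower, and median-of-ratios scaling, which gave -1.29 for U1.5 and -1.21 for U1.4, split them into 170 and 254, against 284 and 204. U1.4 moved to -3.19 on summed FPKM. With a pseudocount of 0.1, U6-1 was at -3.62 (adjusted p = 0.24) and U6-29 at -4.84, and with a pseudocount of 5 they were at -0.29 and -1.08. U6-29 kept its call in both cases and U6-1 with the larger pseudocount. The snRNP protein calls were 0 with a pseudocount of 5 and with a plain prior. The replicate numbers did not pair the libraries (correlation across 2462 genes of 0.0062). The replicate block gave 85 calls, 0 snRNP protein genes, and adjusted p of 0.051 for U2.2 (1.08) and 0.065 for U6-1 (-1.09). The cause of these changes was not tested. Depth limits both U6 genes and U6acat, which had 1 read or none in each CLF RIP library.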
